A study of Rattus norvegicus with 138 samples.

Results

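The neutrophil genes S100a8, S100a9, Lcn2, Ngp, Camp, Mpo, Csf3r and Cxcr2 were followed in the rat tibialis anterior (TA) muscle after volumetric muscle loss (VML), the removal of a volume of muscle that does not grow back. They were taken by symbol, as rows of the table of transcript abundances, and are 8 of its 16181 symbols. Values are TPM, a unit of transcript abundance that is scaled to transcript length and to the total of each library, so levels of different genes can be set side by side.

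The rats were adult male Lewis rats, an inbred strain. A unilateral full-thickness VML wound was made with a 6 mm biopsy punch in the middle of one TA, and the other TA of the same animal is called contralateral. Wounds were left without repair or were filled with autologous minced muscle grafts (MMG), and the labels further divide the operated rats into running and non-running arms. Muscles were taken at 3, 7, 14 and 28 days post injury (DPI), and control muscles, labelled as sham at day 0, came from both TAs of each of 2 rats that had no operation. After libraries of low complexity were dropped, 114 muscles of 78 rats in 31 groups remained, 46 of them from running rats. Injured muscles of non-running, non-repaired rats numbered 3, 8, 4 and 4 at 3, 7, 14 and 28 DPI, and their contralateral muscles 2, 4, 2 and 2. Both control rats carry numbers of another series than all operated rats, so a difference from control cannot be told apart from a difference between the series.

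Neutrophils are short-lived white blood cells that bone marrow makes in large numbers and that blood carries to injured tissue within hours, where they kill microbes, clear debris and draw in monocytes. S100a8 and S100a9 encode the paired calcium-binding proteins of calprotectin, which fill the neutrophil cytosol and are also made by early monocytes. Lcn2 (lipocalin 2, a binder of bacterial siderophores), Camp (cathelicidin), Ngp (neutrophilic granule protein) and Mpo (myeloperoxidase) encode granule proteins whose transcripts are made largely during maturation in the marrow, while Lcn2 is also switched on in many other cells by inflammatory signals. Csf3r is the receptor for granulocyte colony-stimulating factor, and Cxcr2 is the chemokine receptor that guides neutrophils out of marrow and into tissue.

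Start-site windows of 300 bases (250 before the transcription start and 50 from it on) were supplied from RefSeq on build GRCr8 for 7 members, all but S100a8. The windows of the 3 members that the results turn on, the calprotectin gene S100a9, the granule gene Lcn2 and the receptor gene Csf3r, are shown to set their letters beside their different courses. They lie at chr2:178490573-178490872 on the minus strand (S100a9), chr3:36081731-36082030 on the minus strand (Lcn2) and chr5:143582970-143583269 on the plus strand (Csf3r). Each is written along the gene, with capitals for letters of any of 3 motifs on either strand.
S100a9: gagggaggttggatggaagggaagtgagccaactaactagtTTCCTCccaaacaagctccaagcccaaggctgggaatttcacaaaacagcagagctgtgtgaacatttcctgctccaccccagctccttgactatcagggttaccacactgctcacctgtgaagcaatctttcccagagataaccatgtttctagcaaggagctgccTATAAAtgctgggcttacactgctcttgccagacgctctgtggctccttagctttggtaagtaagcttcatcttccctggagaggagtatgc
Lcn2: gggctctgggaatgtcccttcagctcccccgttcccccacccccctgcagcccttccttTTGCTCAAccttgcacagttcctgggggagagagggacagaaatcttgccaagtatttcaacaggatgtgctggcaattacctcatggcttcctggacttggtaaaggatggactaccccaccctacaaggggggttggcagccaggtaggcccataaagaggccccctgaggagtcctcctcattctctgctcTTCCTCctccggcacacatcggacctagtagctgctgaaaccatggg
Csf3r: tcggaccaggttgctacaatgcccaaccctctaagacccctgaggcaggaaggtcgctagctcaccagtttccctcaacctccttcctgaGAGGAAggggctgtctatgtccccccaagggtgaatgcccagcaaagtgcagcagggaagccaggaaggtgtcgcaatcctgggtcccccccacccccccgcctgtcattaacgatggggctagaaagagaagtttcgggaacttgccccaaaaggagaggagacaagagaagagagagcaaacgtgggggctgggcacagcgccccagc
The motifs searched were the C/EBP letters TTGCNNAA (C/EBP factors and PU.1 direct granulocyte development), the PU.1 letters GAGGAA and the TATA box TATAAA, and none overlapped another in these windows. Positions count the first transcribed base as 1 and the base before it as -1. Lcn2 held the C/EBP letters at -191 and the PU.1 letters on the opposite strand at 4, S100a9 held the PU.1 letters on the opposite strand at -209 and the TATA box at -42, and Csf3r held the PU.1 letters at -160. Over all 7 windows, 2 held the C/EBP letters (Lcn2 and Ngp), 4 the PU.1 letters (S100a9, Lcn2, Csf3r and Mpo) and 1 the TATA box (S100a9). Of 33469 rat windows of the same length, 10.6% held the C/EBP letters, 27.6% the PU.1 letters and 14.2% the TATA box. A match is a description of the sequence and not a site of binding.

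Differences are given as log2 fold changes on the log2(TPM + 1) scale, which understates the change of genes near or below 1 TPM. They were tested with limma in one model of all 114 muscles, and "called" marks an adjusted p under 0.05 (Benjamini-Hochberg over all 11328 genes tested) together with a log2 fold change above 1 or below -1. Comparisons on one day share groups of muscles and are not independent of each other. Of the members, 6 had a group mean above 1 TPM and were tested. Ngp and Mpo had no such group and are described by level only, and Camp passed through the single group in which it was highest (mean 1.06 TPM). TPM is a share of the library, and the median of all tested genes was itself 0.96 higher (log2) in injured than in control muscle at 3 DPI and 0.91, 0.53 and 0.52 higher at 7, 14 and 28 DPI. Against contralateral muscle the median was 0.54, 0.91, 0.50 and 0.38 higher, and contralateral muscle stood 0.43 above control at 3 DPI. After median-of-ratios size factors were applied to TPM, 59.3% in place of 91.9% of the genes called between injured and control muscle at 3 DPI were higher in injured muscle. Of the genes called between injured and contralateral muscle, 60.5% in place of 84.5% were higher in injured muscle at 3 DPI and 59.3% in place of 95.8% at 7 DPI. Against control the share went from 94.97% to 60.6%, 97.9% to 72.8% and 99% to 78.4% at 7, 14 and 28 DPI, against contralateral muscle from 99.2% to 73.5% and 98.4% to 82.7% at 14 and 28 DPI, and for contralateral against control muscle at 3 DPI from 99.2% to 84.4%, so the member values below are to be read against the median of all genes. In bulk muscle, fewer neutrophils and less RNA in each neutrophil cannot be told apart.

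**Figure D1:**
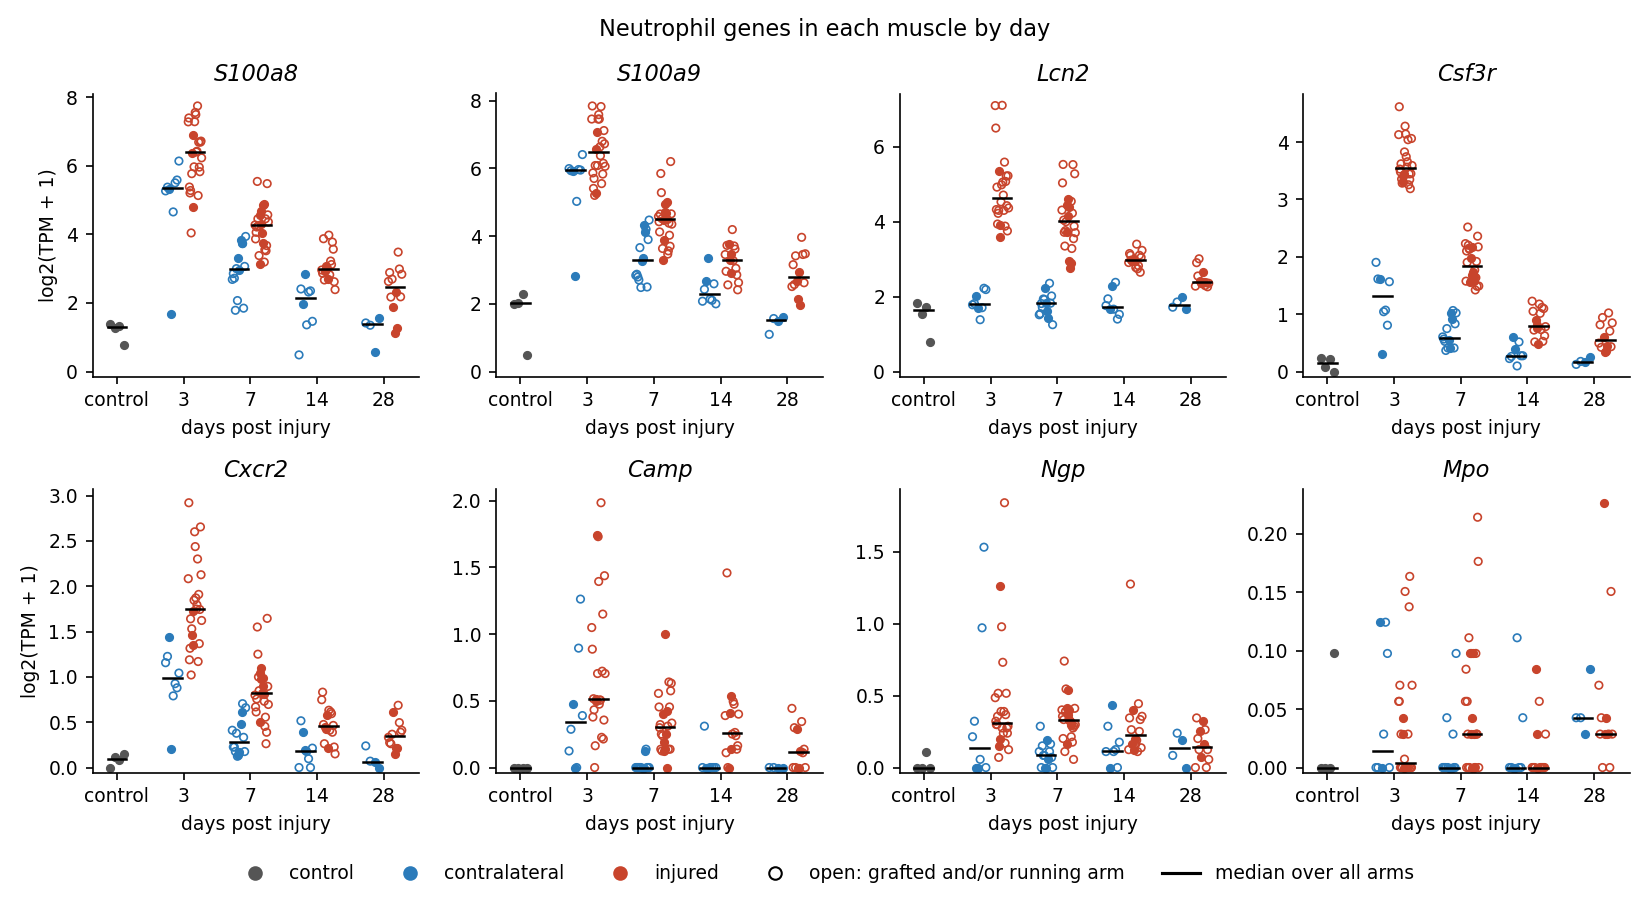
Level of each of the 8 genes, as log2(TPM + 1), in every muscle by days post injury (grey, control; blue, contralateral; red, injured; filled points, non-running and non-repaired; open points, grafted and/or running arms; black bars, medians over all arms). Vertical scales differ between panels. S100a8 and S100a9 of the contralateral muscles at 3 DPI lie near the injured muscles, with 1 exception, while Lcn2 of the contralateral muscles lies near control.

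Calprotectin transcripts had the largest log2 fold changes of the members on the log2(TPM + 1) scale in injured muscle at 3 DPI, while with a pseudocount of 0.1 Csf3r (5.69) was level with S100a8 (5.57) and above S100a9 (5.21). S100a8 was 1.6, 1.42, 1.51 and 0.7 TPM in the 4 control muscles and 82.51, 26.86 and 118.61 TPM in the 3 injured, non-repaired muscles, so every injured muscle stood far above every control. Its log2 fold change was 4.84 (SE 0.55, limma adjusted p = 2.84e-13). S100a9 was 3.02, 3.06, 3.93 and 0.4 TPM in control and 93.97, 37.34 and 134.87 TPM in injured muscle, a log2 fold change of 4.60 (SE 0.51, limma adjusted p = 9.42e-14). The pair kept close to each other: S100a9 was above S100a8 in 94 of the 111 muscles in which both passed 1 TPM, with a median ratio of 1.26 and a range from 0.573 to 2.88. Both were lower at each later day. S100a8 averaged 19.8 ± 7.52 TPM (SD, n = 8) at 7 DPI, 6.65 ± 0.873 (n = 4) at 14 DPI and 2.32 ± 1.28 (n = 4) at 28 DPI, against 1.31 ± 0.412 in control (n = 4). S100a9 averaged 22.1 ± 7.56, 9.48 ± 2.52 and 4.58 ± 1.71 TPM on the same days, against 2.60 ± 1.53 in control. At 7 and 14 DPI both genes were still called against control, with log2 fold changes of 3.09 and 1.74 for S100a8 and 2.74 and 1.65 for S100a9 (limma adjusted p at most 0.00167). At 28 DPI neither was called, with 0.46 for S100a8 (95% interval -0.55 to 1.47) and 0.72 for S100a9 (-0.21 to 1.66).

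Lcn2, too, rose in injured muscle. It was 2.54, 1.92, 2.28 and 0.74 TPM in control muscle and 39.69, 11.11 and 13.95 TPM in non-repaired injured muscle at 3 DPI, a log2 fold change of 2.81 (SE 0.49, limma adjusted p = 1.85e-07). The groups did not overlap, and over all 4 arms the 24 injured muscles of that day ran from 11.1 to 137.1 TPM with a median of 23.7. Means of 14.0 ± 7.19 TPM (SD, n = 8) at 7 DPI and 6.84 ± 0.115 (n = 4) at 14 DPI gave log2 fold changes of 2.27 and 1.5 against control (limma adjusted p = 1.36e-07 and 0.00218). At 28 DPI Lcn2 was 4.51 ± 0.548 TPM (n = 4) and its log2 fold change of 0.99 (95% interval 0.09 to 1.88, limma adjusted p = 0.0433) lay just under the fold limit. All 12 injured muscles of 28 DPI, over all arms, were above the highest control muscle in Lcn2, with a range from 3.8 to 7.06 TPM. The share of all genes that separated in this way was not counted. The median of all tested genes was itself 0.52 higher in the non-repaired muscles of that day.

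The receptors were nearly absent from control muscle. Csf3r was 0.18, 0.06, 0.16 and 0 TPM in control and 9.67, 8.84 and 9.85 TPM in non-repaired injured muscle at 3 DPI, relative to its mean the tightest of the tested members on that day. Its log2 fold change was 3.25 (SE 0.22, limma adjusted p = 3.82e-24), and at 7 DPI, with 2.38 ± 0.547 TPM (SD, n = 8), it was 1.61 (limma adjusted p = 9.78e-14). At 14 DPI it was 0.60 (0.673 ± 0.201 TPM, n = 4, limma adjusted p = 0.0073), under the fold limit. Cxcr2 was 0, 0.08, 0.06 and 0.11 TPM in control and 1.75, 1.55 and 2.32 TPM in injured muscle at 3 DPI, a log2 fold change of 1.43 (SE 0.25, limma adjusted p = 1.88e-07). At 7 DPI Cxcr2 averaged 0.871 ± 0.226 TPM (n = 8), and its log2 fold change of 0.81 (limma adjusted p = 1.27e-04) did not reach the fold limit. Values this low sit where the added 1 TPM compresses a change most.

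The marrow-stage granule genes stayed low. Camp was listed at 0 in all 4 control muscles and at 0.41, 0.43 and 2.35 TPM in non-repaired injured muscle at 3 DPI, and its log2 fold change of 0.92 (limma adjusted p = 9.74e-04) was not called. With a pseudocount of 0.1 it was past both limits (3.12), but Camp entered the test through this group alone, in which 1 of 3 muscles stood at 2.35 TPM, so nothing is read from that call. It passed 1 TPM in 9 of 114 muscles, 8 of them at 3 DPI. Ngp, listed at 0, 0, 0.08 and 0 TPM in control, passed 1 TPM in 4 muscles, namely both muscles of the running rat 001 at 3 DPI (2.58 TPM injured, 1.89 TPM contralateral), the injured muscle of rat 018 at 3 DPI (1.4 TPM) and a grafted injured muscle at 14 DPI (1.42 TPM). Camp also passed 1 TPM in these 4 muscles, at 2.96, 1.4, 2.35 and 1.75 TPM. The summed TPM of 7 red blood cell genes in the muscles of rat 001 was 62045 (injured) and 21659 (contralateral), against 1731 to 4745 in control muscle. Other muscles of 3 DPI had higher sums, up to 79921 (injured) and 45829 (contralateral). No contralateral muscle but that of rat 001 passed 1 TPM in Ngp or Camp. The part of blood in the Ngp and Camp values was not tested. Mpo, which is transcribed at the promyelocyte stage, reached at most 0.17 TPM in any muscle and was listed at 0 in 58 of 114.

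Counted over the tested members, 5 rose in non-repaired injured against control muscle at 3 DPI (all but Camp), 4 at 7 DPI (S100a8, S100a9, Lcn2 and Csf3r), 3 at 14 DPI (S100a8, S100a9 and Lcn2) and 0 at 28 DPI. The share of all tested genes called in the same comparisons was 52.6%, 48.1%, 25.5% and 21.3%, and the counts of members are to be read beside it. With a pseudocount of 0.1 the counts at 14 and 28 DPI were 5 and 2, where 4480 and 4258 of the 11328 genes were called. At 28 DPI limma gave 1 member an unadjusted p under 0.05, which was Lcn2.

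**Figure D2:**
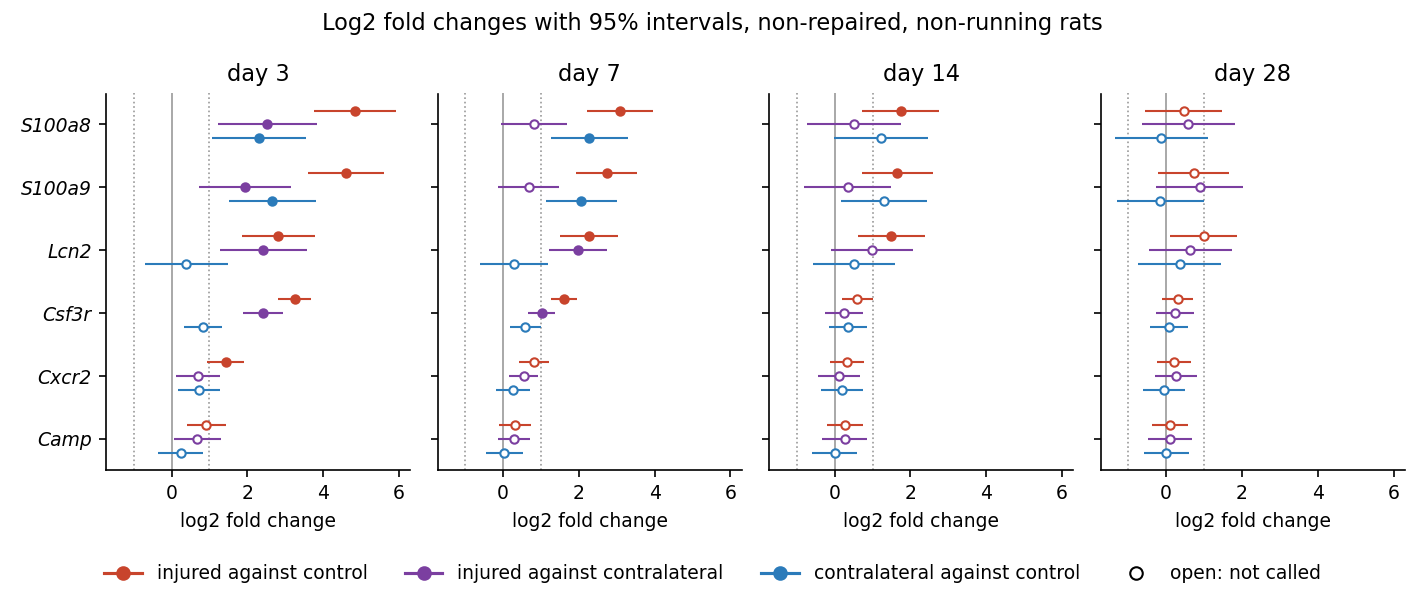
Log2 fold changes with 95% intervals (bars) of the 6 tested members in non-running, non-repaired rats at each day, for injured against control (red), injured against contralateral (purple) and contralateral against control (blue). Filled points were called, and dotted lines mark the fold limit of 1 in either direction. Contralateral against control at 3 and 7 DPI is filled for S100a8 and S100a9, and the Lcn2 value is 0.39 at 3 DPI.

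Against the contralateral muscles, which share the operation, the numbered series and in part the rats, 4 members rose at 3 DPI. Group means were compared here, since not every injured muscle had a contralateral partner. The log2 fold changes were 2.53 (SE 0.66) for S100a8, 1.94 (SE 0.61) for S100a9, 2.43 (SE 0.58) for Lcn2 and 2.42 (SE 0.27) for Csf3r (limma adjusted p = 4.33e-04, 0.00328, 1.43e-04 and 2.39e-13), where 38.2% of all tested genes were called. At 7 DPI 2 members rose, Lcn2 by 1.98 (SE 0.39, limma adjusted p = 3.02e-06) and Csf3r by 1.02 (SE 0.18, limma adjusted p = 2.15e-07), with 47.4% of all genes called. S100a8 (0.82, 95% interval -0.06 to 1.69, limma adjusted p = 0.0746) and S100a9 (0.68, -0.13 to 1.48, limma adjusted p = 0.111) were not called at 7 DPI, and with size factors their differences turned to -0.20 and -0.35, also not called. With size factors Csf3r at 7 DPI was 0.48, under the fold limit, and Lcn2 was 1.09 (limma adjusted p = 0.00739). At 14 and 28 DPI 0 members were called by limma and 0 had an unadjusted p under 0.05, with 21.1% and 13.3% of all genes called. Only 2 contralateral muscles stood in the groups of 3, 14 and 28 DPI, and the interval for Lcn2 at 14 DPI ran from -0.10 to 2.08.

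The contralateral muscle itself held raised calprotectin transcripts. In the non-running, non-repaired arm at 3 DPI S100a8 was 39.47 TPM in rat 010 and 2.17 TPM in rat 017, both above the highest control muscle (1.6 TPM) but far from each other. S100a9 was 59.16 and 6.06 TPM in the same rats against at most 3.93 TPM in control. Both genes were called against control, with log2 fold changes of 2.32 (SE 0.62, limma adjusted p = 0.00182) and 2.66 (SE 0.58, limma adjusted p = 1.84e-04), where 6.43% of all tested genes were called. Csf3r was 2.07 and 0.24 TPM and Cxcr2 1.72 and 0.15 TPM, with log2 fold changes of 0.83 and 0.74 (limma adjusted p = 0.00509 and 0.0224) under the fold limit. Lcn2 was 3.05 and 2.24 TPM, the first above and the second within the control range, with a log2 fold change of 0.39 (95% interval -0.71 to 1.48, limma adjusted p = 0.556). At 7 DPI S100a8 was 6.83 to 13.3 TPM and S100a9 8.6 to 19.1 TPM in 4 contralateral muscles, all above control. These 2 were again the called members, with 2.28 and 2.06 (limma adjusted p = 0.00187 and 0.00222), where 0.803% of all genes were called. At 14 and 28 DPI limma called 0 members (0.715% and 0.185% of all genes), and 1 (S100a9 at 14 DPI, 1.31, limma adjusted p = 0.24) and 0 had an unadjusted p under 0.05.

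The call at 3 DPI depended on the 2 muscles of that group. Which members passed the limits changed with either muscle left out, but each such fit leaves a group of 1 muscle and no call is read from it. Without rat 017 contralateral against control gave 4.15 for S100a8, 4.21 for S100a9, 1.48 for Csf3r and 1.36 for Cxcr2. Injured against contralateral muscle then gave 2.61 for Lcn2, 1.81 for Csf3r, 1.30 for S100a8 and 0.92 for S100a9. The contralateral muscles of the other arms therefore bear on the value. S100a8 was 37.59 and 40.61 TPM in the MMG arm, 47.07 and 69.57 TPM in the running arm and 24.22 and 44.39 TPM in the running MMG arm. In 7 of the 8 contralateral muscles of 3 DPI it was thus at least 24.2 TPM, and rat 017 stood apart. Averaged over the 4 arms with equal weight, an alternative chosen after the values were seen, contralateral against control gave 3.76 for S100a8 (SE 0.44, limma adjusted p = 2.13e-11), 3.8 for S100a9 (SE 0.41, limma adjusted p = 9.35e-13), 1.11 for Csf3r (limma adjusted p = 1.54e-07), 0.87 for Cxcr2 and 0.38 for Lcn2 (SE 0.39, limma adjusted p = 0.379). In that average 7.16% of all genes were called at 3 DPI.

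Calprotectin and Lcn2 took different levels relative to control in the contralateral muscle. Over all arms, 8 of 8 contralateral muscles of 3 DPI were above the highest control muscle in S100a8, S100a9, Csf3r and Cxcr2 and 3 of 8 in Lcn2, whose range was 1.61 to 3.67 TPM. At 7 DPI the counts were 14 of 14 for S100a8, S100a9 and Csf3r, 12 of 14 for Cxcr2 and 5 of 14 for Lcn2. The share of all genes that separated in this way was not counted. In the non-running, non-repaired arm the median of all tested genes was 0.43 above control at 3 DPI and 0.03 at 7 DPI. The highest control muscle held only 0.18 TPM of Csf3r and 0.11 TPM of Cxcr2. The difference of log2(TPM + 1) between S100a8 and Lcn2 in one muscle, which moves less with the total of the library than a single level does, averaged 3.09 ± 1.28 (SD) in 8 contralateral muscles of 3 DPI and -0.28 ± 0.105 in 2 control rats, whose left and right muscles were averaged. For S100a9 and Lcn2 the averages were 3.65 ± 1.05 and 0.23 ± 0.136. These values describe genes picked for their pattern in the same muscles and carry no test. In rat 017 the S100a8 difference was -0.03, between the control rats' highest of -0.21 and the other contralateral muscles, and level with the highest single control muscle.

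**Figure D3:**
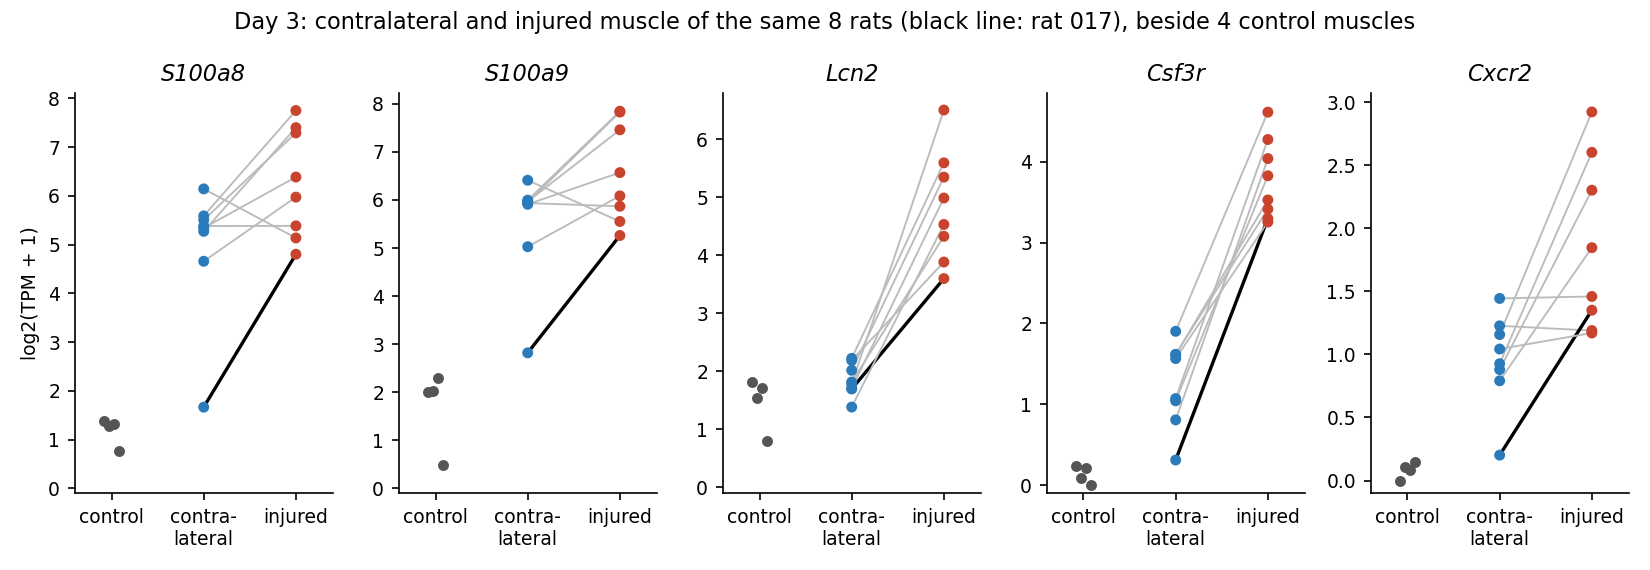
Levels, as log2(TPM + 1), of S100a8, S100a9, Lcn2, Csf3r and Cxcr2 in the contralateral (blue) and injured (red) muscle of the same 8 rats at 3 DPI, joined by lines, beside the 4 control muscles (grey). The black line is rat 017. Lcn2 and Csf3r run upward along all 8 lines, S100a8 along 7 and S100a9 along 6.

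Within a rat the injured muscle was the higher in Lcn2 and Csf3r in 34 of 34 rats with both muscles. The median difference was 1.67 on the log2 scale for Lcn2 and 1.04 for Csf3r. S100a8 was higher in the injured muscle of 30 of 34 rats (median 1.31, range -1.01 to 3.14), S100a9 in 29 (median 1.16) and Cxcr2 in 33 (median 0.40). At 3 DPI the Lcn2 difference of the 8 rats ran from 1.69 to 4.72, and that of S100a8 from -1.01 to 3.14. These differences are descriptions and were not tested apart from the model. The share of all genes that were higher in every injured muscle was not counted. In the non-running, non-repaired groups the median of all tested genes was itself 0.38 to 0.91 above contralateral muscle, by day. The counts alone therefore do not set the members apart from other genes.

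Other cell type markers moved with the side and the day. At 3 DPI the sum of 11 macrophage genes was 23.2 to 39.1 TPM in control, 93.3 to 201.8 TPM in contralateral and 1386 to 2363 TPM in injured muscle. The sum of 7 skeletal muscle fibre genes was 144505 to 175653, 106074 to 141726 and 16023 to 58514 TPM in the same order, so the labelled tissue was present in each side and took a smaller share in the wound. Red blood cell genes summed to 1731 to 4745 TPM in control and 1108 to 45829 TPM in contralateral muscle, and 3 platelet genes to 14.7 to 21.95 and 26.5 to 86 TPM. In injured muscle of that day the red blood cell sum was 1532 to 79921 TPM, the platelet sum 759 to 2399 TPM and the mast cell sum 14.9 to 125.1 TPM. The contralateral muscle of rat 017, which was lowest in S100a8, was also the lowest of the 8 in the macrophage (93.3 TPM), red blood cell (1108 TPM) and platelet (26.5 TPM) sums. Mast cell genes summed to 5.63 to 7.75 TPM in control and 16.9 to 34.4 TPM in contralateral muscle, T cell genes to 1.44 to 1.88 and 1.99 to 3.32 TPM, and eosinophil and B cell genes stayed under 1 TPM in both. Keratinocyte genes summed to at most 2.87 TPM in control and 4.13 TPM in contralateral muscle. The part of these cells, and of blood left in the muscle, in the member values was not tested.

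Between successive days the non-repaired injured muscle lost calprotectin and Csf3r transcripts. From 3 to 7 DPI S100a8 fell by 1.75 (SE 0.49, limma adjusted p = 0.00255), S100a9 by 1.87 (SE 0.45, limma adjusted p = 5.15e-04) and Csf3r by 1.64 (SE 0.20, limma adjusted p = 9.81e-11) on the log2 scale, where 7.34% of all genes were called. Lcn2 changed by -0.54 over the same days (95% interval -1.39 to 0.32, limma adjusted p = 0.328). From 7 to 14 DPI S100a8 fell by 1.35, S100a9 by 1.08 and Csf3r by 1.01 (limma adjusted p = 0.00508, 0.0148 and 1.45e-06), with 6.82% of all genes called, and Lcn2 changed by -0.77 (limma adjusted p = 0.0684). The median of all genes was 0.40 lower at 14 than at 7 DPI, and with size factors 0 members were called between these days and 60.9% in place of 10.6% of the called genes were higher at 14 DPI. From 14 to 28 DPI limma called 0 members (0.459% of all genes), and 1, S100a8 (-1.28, limma adjusted p = 0.211), had an unadjusted p under 0.05. Whether Lcn2 fell less than calprotectin was not tested.

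Repair with MMG did not move a member past the limits on any day. Injured muscle with and without graft held S100a8 at 72.3 ± 61.9 (SD, n = 7) and 76.0 ± 46.2 TPM (n = 3) at 3 DPI, and Lcn2 at 46.5 ± 47.7 and 21.6 ± 15.7 TPM. The wide spread comes with a range of 14.3 to 136.4 TPM for Lcn2 within the MMG group. Log2 fold changes at 3 DPI were -0.26 for S100a8 (95% interval -1.25 to 0.72), -0.08 for S100a9 (-0.99 to 0.83) and 0.76 for Lcn2 (-0.11 to 1.64), so a doubling of Lcn2 cannot be told from no change. By limma 0 members were called at 3, 7, 14 and 28 DPI and in the average of the 4 days, where 0.00883%, 0.0883%, 0.0265%, 0% and 0.0265% of all genes were called. At an unadjusted p under 0.05 there were 0, 1 (Csf3r, 0.36), 0 and 0 members on the 4 days. In the average of the days Csf3r was 0.27 higher with graft (SE 0.10, limma adjusted p = 0.0344), under the fold limit, while the median of all genes was 0.12 higher. At 28 DPI S100a8 was 3.51 to 6.4 TPM with and 1.2 to 3.95 TPM without graft, a log2 fold change of 0.95 (95% interval -0.06 to 1.96, limma adjusted p = 0.999). A test of whether the graft difference varied by day gave every tested member a limma adjusted p of 1, with 0.0265% of all genes past the threshold.

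Grafted muscles set against the contralateral muscles of grafted rats gave 2, 4, 2 and 1 members at 3, 7, 14 and 28 DPI, beside 44%, 46.2%, 26.1% and 19.1% of all genes. Of these genes 84.6%, 92.7%, 97.97% and 98.4% were higher in grafted muscle, and 57.8%, 60.8%, 67.4% and 74.4% with size factors. They were Lcn2 (3.25) and Csf3r (1.96) at 3 DPI, S100a8 (1.74), S100a9 (1.74), Lcn2 (2.48) and Csf3r (1.56) at 7 DPI, S100a8 (1.65) and Lcn2 (1.18) at 14 DPI and S100a9 (1.58) at 28 DPI, all higher in the injured muscle. With size factors the counts were 2, 2, 0 and 0, and at 14 DPI leaving out any 1 of the 6 muscles gave 0 or 1. At 3 DPI S100a8 differed by 0.44 and S100a9 by 0.26 between these muscles (limma adjusted p = 0.484 and 0.66), and with size factors by -0.25 and -0.44. That no calprotectin gene was called there, but was in non-repaired rats, is no test of a difference between the arms.

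Running, as labelled, went with no called member either. S100a8 was 93.6 ± 55.0 TPM (SD, n = 8) in running and 76.0 ± 46.2 TPM (n = 3) in non-running, non-repaired injured muscle at 3 DPI, and the ranges overlapped. Its log2 fold changes at 3, 7, 14 and 28 DPI were 0.35, 0.24, 0.16 and 0.86, and the interval at 28 DPI, with 2 running muscles, ran from -0.38 to 2.10. By limma 0 members were called on each day and in the average of the 4 days, and 0 had an unadjusted p under 0.05, with 0.0441%, 0%, 0.0177%, 0.0177% and 0% of all genes called. In the average Lcn2 differed by 0.17 (95% interval -0.29 to 0.62) and S100a9 by 0.12 (-0.35 to 0.60). A test of whether the running difference varied by day gave the members limma adjusted p values from 0.658 to 0.970 (0.0353% of all genes past the threshold). Against the contralateral muscles of running rats 2 members rose at 3 DPI (Lcn2 2.49, Csf3r 2.36), 1 at 7 DPI (Lcn2 2.47) and 1 at 14 DPI (Lcn2 1.55), beside 40.1%, 43.1% and 26.3% of all genes. Of these genes 83.9%, 92.6% and 97.5% were higher in injured muscle, and 58.5%, 60.4% and 65.7% with size factors. S100a8 and S100a9 differed there by 0.51 and 0.33 at 3 DPI, neither called, and by -0.10 and -0.28 with size factors. The Lcn2 call at 14 DPI was lost with size factors (1.04, limma adjusted p = 0.0868).

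**Figure D4:**
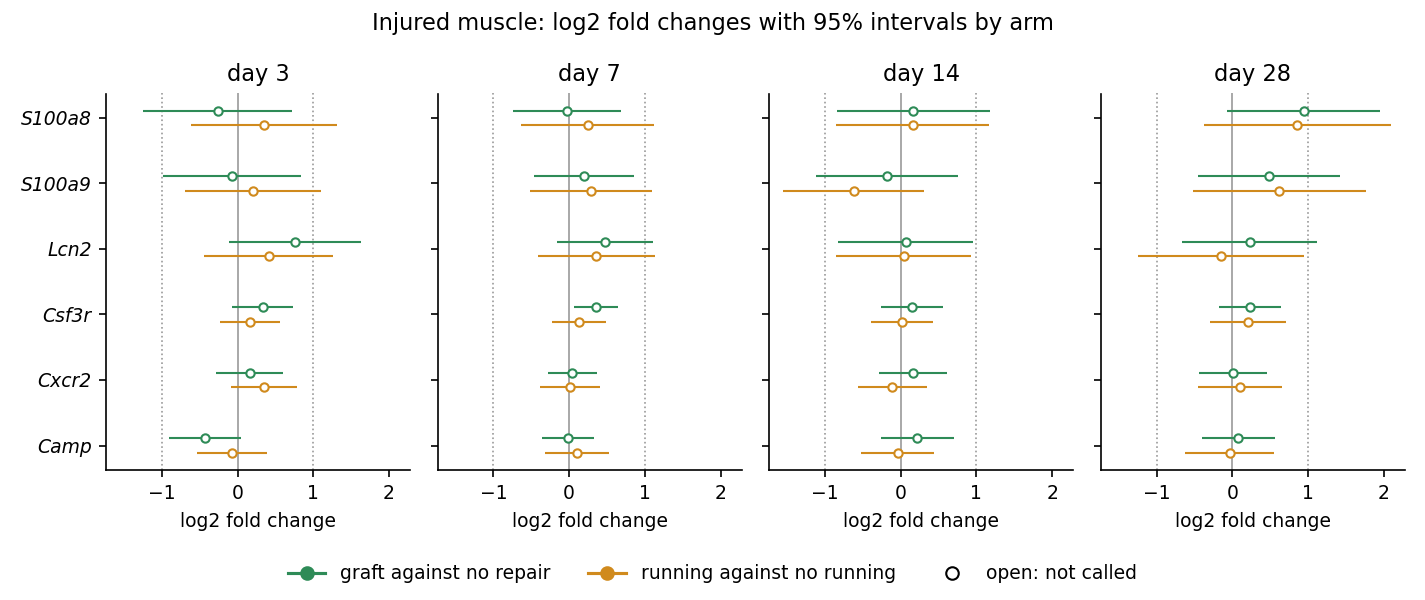
Log2 fold changes with 95% intervals (bars) of the 6 tested members in injured muscle, for MMG against no repair in non-running rats (green) and running against non-running in non-repaired rats (orange), at each day. Dotted lines mark the fold limit of 1 in either direction. All points are open (not called), and many intervals reach past 1.

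Other genes of neutrophil biology, from lists chosen with earlier results of these data known, rose in injured muscle with the members. Among 16 tested granule and oxidase genes 15 were called higher than control at 3 DPI, where 48.3% of all tested genes were called higher, with a median log2 fold change of 3.55 against 0.96 over all genes. Lyz2 (lysozyme, 7.93), Cybb (the catalytic oxidase subunit, 5.98), Anxa1 (annexin A1, 5.66) and Cyba (its partner subunit, 5.34) were highest, and RatNP-3b, a defensin gene made in marrow, was 0.48 (limma adjusted p = 0.0634). All 18 tested surface receptor genes rose, with a median of 4.12 and C5ar1 (complement C5a receptor, 5.66), Tlr2 (5.57), Selplg (P-selectin ligand, 5.38) and Itgam (5.30) at the top. Many of these genes, Lyz2, Cybb and Itgam among them, are also made by macrophages, whose markers stood far above control in the same muscles. Of 8 growth factor and chemoattractant genes 7 rose (median 2.71), among them Ccl3 (3.996), Il6 (3.18), Il1b (3.02) and Cxcl6 (2.89), and Csf2 was 0.63. All 6 transcription factor genes of granulocyte development (median 3.02; Spi1 5.22, Runx1 4.55, Cebpa 3.97) and all 5 endothelial adhesion genes (median 1.73; Icam1 3.24, Selp 2.37) were called. With size factors the counts were 14 of 16, 18 of 18, 6 of 7, 4 of 6 and 2 of 5 in that order, beside 41.3% of all genes called in that fit, 59.3% of them higher, and no list had a gene called lower.

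The same lists were counted at the later days. In the order granule and oxidase, receptor, chemoattractant, transcription factor and adhesion genes, injured against control muscle had 14, 17, 4, 3 and 5 genes higher at 7 DPI, 9, 14, 2, 3 and 4 at 14 DPI, and 9, 10, 1, 3 and 3 at 28 DPI. Of all tested genes 45.6%, 25% and 21.1% were called higher on these days. With size factors the counts were 11, 17, 4, 3 and 3 at 7 DPI, 8, 13, 2, 3 and 2 at 14 DPI, and 7, 10, 1, 2 and 2 at 28 DPI, beside 36.1%, 21.7% and 14.7% of all genes called, of which 60.6%, 72.8% and 78.4% were higher. Against contralateral muscle at 3 DPI the counts were 13, 17, 6, 4 and 4, with medians of 2.60, 3.35, 2.14, 2.50 and 1.24 beside 0.54 over all genes, and 32.3% of all tested genes were called higher. They were 14, 15, 4, 4 and 4 at 7 DPI, 9, 13, 0, 3 and 3 at 14 DPI, and 6, 10, 0, 2 and 2 at 28 DPI, beside 45.3%, 20.9% and 13.1% of all genes called higher. Size factors gave 12, 15, 5, 4 and 2 at 3 DPI and 9, 14, 4, 3 and 2 at 7 DPI. At 14 DPI they gave 5, 9, 0, 3 and 1, and at 28 DPI 5, 8, 0, 1 and 0. In that fit 34.2%, 31.55%, 14.3% and 8.73% of all genes were called on the 4 days. Of these 60.5%, 59.25%, 73.5% and 82.7% were higher.

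In contralateral against control muscle at 3 DPI fewer listed genes moved. Granule and oxidase genes had 6 of 16 called (median 0.80; Lyz2 2.27, Anxa1 1.83, Chi3l1 1.67 and Cybb 1.5), and receptor genes 5 of 18 (median 0.73; among them Csf2ra 1.17, C5ar1 1.07 and Csf2rb 1.06). The other 3 lists had 1 called gene each, Il1b (1.06), Spi1 (1.15) and Sele (endothelial E-selectin, 1.2), beside a median of 0.43 over all genes and 6.37% of them called higher. The marrow defensin RatNP-3b was -0.36 (limma adjusted p = 0.258). With size factors 5 granule and oxidase genes, 1 receptor gene, no chemoattractant, no transcription factor and 1 adhesion gene were called, beside 2.81% of all genes (84.4% of them higher), while S100a8 (2.01, limma adjusted p = 0.0155) and S100a9 (2.36, limma adjusted p = 0.00199) were still called. At 7 DPI the counts were 2, 0, 0, 0 and 0, beside 0.636% of all genes.

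The genes whose levels followed each member most closely across the 114 muscles differed between members. Among the genes with the highest Pearson's r of log2(TPM + 1) were Ifit1 (0.899) and Fcnb (0.873) for S100a8, and Ifit1 (0.903) and F2rl2 (0.869) for S100a9. For Cxcr2 they were Ifit1 (0.944) and Nfe2 (0.902), so Ifit1, an interferon-induced gene, came up for all 3. Lcn2 had other partners, Dhcr7 (0.948), Ptx3 (0.948) and Steap2 (0.947), and Csf3r had Mcemp1 (0.978), Oscar (0.967) and Tpd52 (0.964). For Camp the closest were Clec4b2 (0.715), Reg3b (0.700) and Il1r2 (0.700). Between members, r was 0.977 for S100a8 and S100a9 and 0.713 for S100a8 and Lcn2. The muscles share injury, day and rats, so these values describe the table and carry no test.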

How the data were processed

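RNA-Seq libraries of the TA muscle were pseudo-aligned by the authors to the Genbank-annotated rat genome with kallisto, and the deposited table gives TPM per gene symbol for 138 libraries. The labels give an average of 55 M reads per library, and the study's methods state a lower one. The depth of each library is unknown, since TPM keeps none, and no counting error can be given. The study tested gene counts with DESeq2 (the labels name DESeq), and counts were not used here. The table ends at Tubb3 after 1 incomplete row was left out.

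Libraries were joined to labels by name. With fewer than 7000 symbols above 1 TPM, 13 libraries (901 to 5712 symbols) were dropped, and the others held 7866 to 10948. No group was given to 9 libraries whose label names another muscle than the title, or another day than the other libraries of that rat. Libraries of one muscle were averaged (2 muscles), and 2 muscles were lost. The 8 members and the gene lists were chosen with earlier results of these data known. Named were the members, up to 4 listed genes of largest change and any listed gene going the other way, and the 3 closest correlates of each tested member, and 1 gene that this rule named is not reported here.

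Genes with a group mean above 1 TPM were tested with limma 3.58.1 (intensity trend) in R 4.3.3 on log2(TPM + 1), with 1 coefficient per group and 83 residual degrees of freedom. P values measure the spread between muscles, and left and right control muscles of 1 rat were counted as separate samples. Simulated data with known changes were run through the same code. Contralateral and injured muscles share rats in 34 pairs (mean correlation of deviations 0.0944, and -0.0002 between rats), and a random block for the rat (statmod 1.5.0) was an alternative. Other alternatives were a pseudocount of 0.1, no filter, size factors, all libraries kept, the compared groups alone, control muscles averaged within a rat, and single muscles left out one after another. Averaging contralateral arms, a covariate for ranges of rat numbers and leaving out rat 017 were added after the values were seen. Protein sequences were not used here. Tables and plots used Python 3.11.15, numpy 2.4.6, pandas 2.3.3 and matplotlib 3.10.9.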

Additional observations from a re-analysis of the deposited data

Results flagged for a closer look

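For 17 of 124 combinations of a gene and a group of 4 to 8 muscles (13.7%), a single muscle lay apart from the others by Dixon's criterion. The same muscles recur for each of the 8 genes. Chance gives about 1 in 20 for continuous, normally distributed values. Some flagged groups of Camp, Ngp and Mpo held 0 TPM in all muscles but 1, which fixes the flag in advance. The 13.7% is therefore not set against that rate. Control muscle 4 (right TA of rat 038, the kept library with the fewest symbols above 1 TPM) was low in S100a8 (0.7 TPM) and S100a9 (0.4 TPM) and the single control muscle with Mpo (0.07 TPM), while control muscle 3 was the single one with Ngp (0.08 TPM). High muscles were an MMG, running muscle at 3 DPI for Lcn2 (137.14 TPM, next 32.3 TPM), the running, non-repaired muscle of rat 001 at 3 DPI for Ngp (2.58 TPM), a non-repaired muscle at 7 DPI for Camp (1.0 TPM), a contralateral muscle at 7 DPI for Camp (0.09 TPM), a contralateral muscle of an MMG rat at 7 DPI for S100a9 (11.7 TPM) and a non-repaired muscle at 28 DPI for Cxcr2 (0.53 TPM). A running, MMG muscle at 14 DPI was low in Cxcr2 (0.33 TPM) and high in Lcn2 (9.57 TPM). The other lone values were of Mpo, at 0.11, 0.03, 0.04, 0.02 and 0.17 TPM.

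The 9 libraries without a group also held member transcripts above the highest control muscle. Their highest values were 10.3 TPM (10.25 as listed) for S100a8, 15.2 TPM (15.23) for S100a9, 6.26 TPM for Lcn2, 1.08 TPM for Csf3r, 0.6 TPM for Cxcr2, 0.25 TPM for Ngp and 0.18 TPM for Camp.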

How the results depend on the processing

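The counts of called members changed by more than 1.5 times as follows, from main to alternative. With a pseudocount of 0.1, contralateral against control went from 2 to 4 at 3 DPI and from 0 to 1 at 14 DPI, injured against contralateral from 2 to 4 at 7 DPI and from 0 to 1 at 28 DPI, injured against control from 3 to 5 at 14 DPI and from 0 to 2 at 28 DPI, grafted against contralateral from 2 to 4 at 14 DPI and from 1 to 3 at 28 DPI, and running injured against contralateral from 1 to 3 at 7 DPI and from 1 to 2 at 14 DPI. It gave smaller rises, to 6 for injured against control (3 and 7 DPI) and injured (3 DPI) and grafted (7 DPI) against contralateral. Camp, whose call is not read, is in each 6 and may be in others. Running injured against contralateral (3 DPI) and contralateral against control (7 DPI) rose to 3. DPI 7 against 3 and 14 against 7 rose to 4. With size factors, injured against contralateral at 7 DPI went from 2 to 1, grafted against contralateral from 4 to 2, 2 to 0 and 1 to 0 at 7, 14 and 28 DPI, running injured against contralateral at 14 DPI from 1 to 0, and 14 against 7 DPI from 3 to 0. With all libraries kept, contralateral against control went from 2 to 1 and 2 to 0 at 3 and 7 DPI, grafted against contralateral from 2 to 0 and 1 to 0 at 14 and 28 DPI, and 14 against 7 DPI from 3 to 0. With the compared groups alone, contralateral against control went from 2 to 0 and 2 to 1 at 3 and 7 DPI, injured against contralateral at 3 DPI from 4 to 2, grafted against contralateral at 28 DPI from 1 to 2, running injured against contralateral at 14 DPI from 1 to 2, and 28 against 14 DPI from 0 to 1. Without the filter, grafted against contralateral at 14 DPI went from 2 to 1. Without rat 017 the counts at 3 DPI changed for contralateral against control and injured against contralateral, but 1 contralateral muscle was left and no count is read. The cause was not tested. No called member turned its direction under any alternative run, while some uncalled values did, of S100a8, S100a9, Lcn2 and Camp among others.

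With each muscle left out in turn, the counts ran from 0 to 4 for contralateral against control at 3 DPI, 2 to 5 and 1 to 2 for injured against contralateral at 3 and 7 DPI, 5 to 6 and 0 to 1 for injured against control at 3 and 28 DPI, 0 to 1 for grafted against contralateral at 14 DPI and 0 to 1 at 28 DPI, 2 to 3, 1 to 2 and 1 to 2 for running injured against contralateral at 3, 7 and 14 DPI, 2 to 3 for 7 against 3 DPI and 1 to 3 for 14 against 7 DPI. Injured against contralateral at 7 DPI fell to 1 without injured muscle 3 or 4 or contralateral muscle 3 or 4, grafted against contralateral fell at 14 DPI without any 1 of its 6 muscles and at 28 DPI without contralateral muscle 1, and 14 against 7 DPI fell to 1 without injured muscle 4 of 14 DPI. Injured against control at 28 DPI rose to 1 without control muscle 1 or 3, and running injured against contralateral rose to 2 at 7 DPI without running muscle 1 or 4 and at 14 DPI without running muscle 4. Leaving out the contralateral muscles of running rats was not run. The rat as a random block (replicate block, consensus correlation 0.026) changed 0 of 34 counts, and 15 of the 34 pairs correlated above 0.1.

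Over all genes, contralateral against control at 3 DPI had 728 called, 2182 with a pseudocount of 0.1, 314 with size factors, 179 with all libraries kept, 24 with the compared groups alone and 1421 without rat 017. At 7, 14 and 28 DPI it had 91, 81 and 21, and in the same order 401, 484 and 249 with a pseudocount of 0.1, 152, 181 and 60 with size factors, 4155, 3 and 4 with all libraries kept, 41, 0 and 1 with the compared groups alone, 56, 17 and 7 with control muscles averaged by rat, and over all arms 230 at 7 DPI, 1.26% of all genes at 14 DPI and 58 at 28 DPI. A pseudocount of 0.1 also took injured against control from 2889 to 4480 and 2410 to 4258 at 14 and 28 DPI, injured against contralateral from 2385 to 3850 and 1508 to 2800, grafted against contralateral at 28 DPI from 2160 to 3631, graft against none at 7 DPI from 10 to 29 (124 with all libraries kept), 14 against 7 DPI from 773 to 1420 and 28 against 14 DPI from 52 to 114 (14 with all libraries kept, 81 alone). Injured against contralateral at 7 DPI went from 5365 to 8144 with all libraries kept and 3529 with size factors, that at 28 DPI to 976 with size factors, and 14 against 7 DPI to 476 with size factors and 287 with all libraries kept. Groups of 2 muscles borrow their spread from the other groups, and a gene under 1 TPM in both groups cannot pass the fold limit. A group cut to 1 muscle by leaving a muscle out takes all its spread from other groups, so such counts carry no test.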

Other observations

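The library of rat 011 titled as contralateral, whose label gives another day than its rat's other libraries, held S100a8 at 10.25 TPM, S100a9 at 15.23 TPM and Lcn2 at 2.54 TPM. For the 4 running rats 077, 078, 079 and 080 at 28 DPI the title of each library gives one muscle and its label the other. There the muscles titled as injured held Lcn2 at 2.78, 2.3, 2.21 and 1.78 TPM and those titled as contralateral at 3.63, 3.58, 6.26 and 6.01 TPM. S100a9 was 3.01, 1.3, 0.46 and 1.34 TPM in the muscles titled as injured and 2.09, 3.91, 4.7 and 5.96 TPM in those titled as contralateral. Lcn2 was thus higher on the side titled contralateral in all 4 rats and S100a9 in 3 of them, and these muscles entered no comparison.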
